A study of Chlamydomonas reinhardtii with 6 samples.

Results

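In Chlamydomonas reinhardtii, a unicellular green alga, 46 genes that the authors' table of UV-B-responsive genes places under DNA, cell cycle or cell division went both ways after 1 h of UV-B. Members were the genes of that table whose MapMan name, a functional category, begins with DNA, cell cycle or cell division. They are 46 of the 2596 genes in the table and of the 13452 genes measured. The rule leaves out 5 named genes, of which 3 carry such a category (the photolyase-domain genes g1436 and g6392 and the cyclin gene Cre07.g321650). Of the members, 12 are categorised under repair, 22 under DNA synthesis and chromatin structure, 4 under cell division, 6 under the cell cycle and 2 under DNA without further detail.

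The UV-B group held 3 libraries and the no UV-B group 3, each from a separate culture of strain CC-125 (137c mt+) described as a stationary culture, grown in acetate-containing TAP medium under dim light at 3.6 µmol per m2 and s. In both groups the dishes stood for 1 h under lamps giving weak white light and 0.07 mW/cm2 of narrowband UV-B. UV-B reached the UV-B group through a filter that cuts off at 311 nm, and the no UV-B group stood behind one that cuts off at 360 nm and so kept UV-B out, so the groups differ in all light between these edges. Libraries held 9529134 to 11214409 reads in the UV-B group and 7868534 to 11972794 in the no UV-B group. A value is a normalised read count, scaled to library size, and each log2 fold change is UV-B minus no UV-B on log2(value + 1) with its standard error (SE). That scale makes differences of low genes look smaller than they are, and values are not corrected for gene length, so levels are compared between libraries and not between genes.

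UV-B light joins neighbouring pyrimidines of DNA into dimers. Cells remove such lesions by photolyases, which use light, or by excision, and repair mismatches and breaks by further pathways such as MutS and MutL mismatch repair and recombination. Chlamydomonas divides by multiple fission: after a long growth phase, rounds of DNA replication and mitosis follow each other quickly. In eukaryotes replication is driven by a helicase made of the MCM ring, CDC45 and the GINS complex, with DNA polymerase alpha starting each new strand, topoisomerases untangling the helices, and histones with their chaperones packing the product.

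The deposited table was made from this same comparison, so the direction and size of each member's difference were what chose it and are given here as description. In the fit over all genes 22 members were higher and 24 lower with UV-B, and all 46 passed an adjusted p of 0.05, as did 59.0% of all genes tested (29.5% raised and 29.6% lowered). The near balance of raised and lowered over all genes depends on how libraries were scaled, as given in the last part. In bulk RNA of a culture, a change in the share of cells at some stage of the cycle and a change of transcript per cell cannot be told apart. No member had overlapping values between groups (0 of 46), and 63.2% of all genes tested had none either. Where a value of at least 5 in 3 libraries was required, which removes low genes, 18 members were raised and 14 lowered. The median log2 fold change was 1.12 over the 22 higher members and -0.96 over the 24 lower ones. Over all 46 it was -0.76, which describes neither set, and over all 13415 genes tested it was 0.00037. In absolute terms the medians were 1.03 for the members and 0.40 for all genes tested. Some members lay just inside the table's limit of a 2-fold change. In the authors' deposited table the log2 fold changes nearest it were 1.03 (Cre11.g480060), 1.04 (Cre03.g174476), -1.002 (g11702) and -1.03 (Cre10.g455850). Those furthest from it were 2.32 (Cre10.g445150) and -2.24 (Cre14.g619800). Categories come with that table alone, so genes of these functions just outside its limit are not analysed here.

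**Figure D1:**
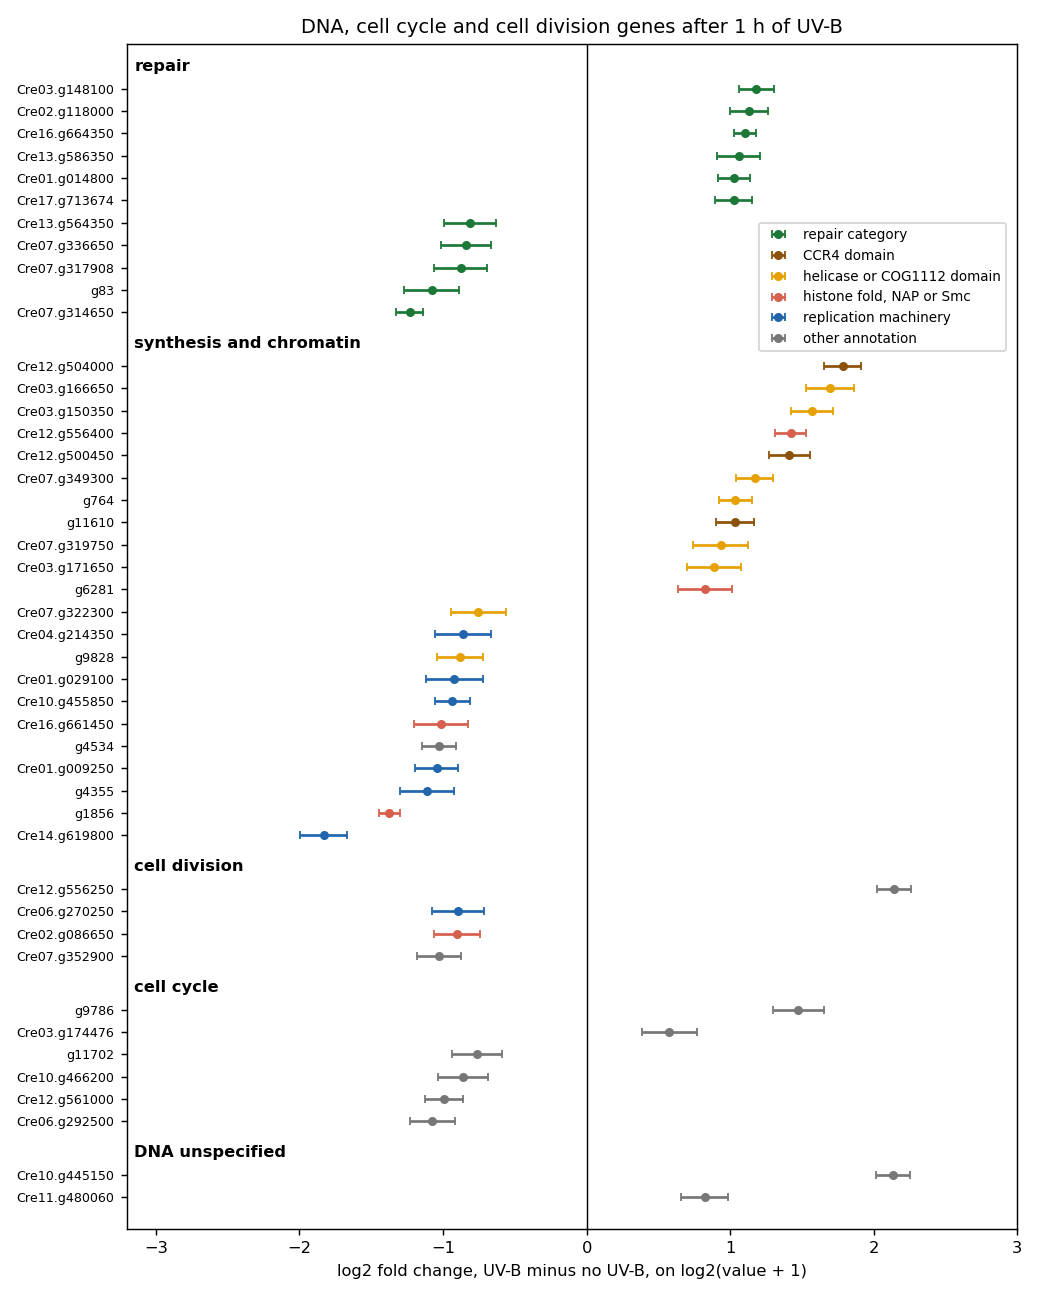
Log2 fold change of 45 of the 46 members, UV-B minus no UV-B on log2(value + 1), with bars of 1 SE (limma, 3 libraries per group), grouped by functional category and coloured by the words of the gene's annotation. The repair genes shown split into 6 higher and 5 lower. All 7 genes grouped as replication machinery lie left of 0, and 9 of 11 genes with a helicase, COG1112 or CCR4 domain lie right of it.

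Repair genes were divided, with 6 of 12 higher and 6 of 12 lower under UV-B. The photolyase-domain genes g1436 and g6392, left out by the rule, are not in this count. The higher members include a photolyase-family gene and a MutS-family gene. The lower ones include a chloroplast RecA gene and a MutL-family gene. The log2 fold changes ran from 1.02 to 1.18 among the higher genes and from -1.23 to -0.81 among the 5 lower genes described here, with a median of 0.11 over all 12 that describes neither set.

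Cre02.g118000 carries the PhrB and FAD-binding words of the photolyase and cryptochrome family, flavoproteins that repair dimers with light or act as photoreceptors. Its normalised read counts were 12.9, 15.1 and 14.3 in UV-B libraries, against 5.70, 6.47 and 5.49 in no UV-B libraries. Each UV-B library was thus above each no UV-B library, and the lowest UV-B value was 2.00 times the highest no UV-B value. The log2 fold change was 1.13 ± 0.13 (SE), or 2.40-fold in the means.

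The genes with MutS-family and MutL words moved in opposite directions. The annotation of Cre01.g014800 lists MutS2 ahead of other MutS-family words, so it does not settle a role in mismatch repair. This gene had 23.4, 24.1 and 22.4 in UV-B libraries, against 10.3, 10.3 and 12.3 in no UV-B libraries. Its log2 fold change was 1.02 ± 0.11 (SE), and the groups lay apart by a factor of 1.82. Cre07.g336650, annotated with MutL, a mismatch-repair protein, had 1.98, 2.06 and 1.82 in UV-B libraries, against 4.50, 4.75 and 3.66 in no UV-B libraries. All its UV-B values were below the lowest no UV-B value, and its log2 fold change was -0.84 ± 0.17 (SE). This gene had few reads, 63 reads over the UV-B libraries and 121 over the no UV-B libraries.

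A pair of genes related to bacterial RecA were lower. Cre07.g314650 encodes the chloroplast RecA recombination protein, a relative of the bacterial strand-exchange enzyme. It had 23.4, 23.3 and 29.7 in UV-B libraries, against 58.0, 60.4 and 64.0 in no UV-B libraries, a decrease of 2.39-fold in the means. Cre07.g317908, annotated with Sms, a bacterial RecA-related repair protein also called RadA, had 1.23, 1.24 and 1.99 in UV-B libraries, against 3.07, 3.69 and 3.83 in no UV-B libraries. Its pooled ratio of reads, UV-B over no UV-B and relative to effective library size, was 0.426 (exact 95% interval 0.297 to 0.605), where the interval covers counting error only.

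Cre13.g564350, annotated with TEL1 and phosphatidylinositol 3-kinase-related domains, was also lower. Kinases of this family include the DNA-damage kinases ATM and ATR and the growth regulator TOR, and the gene is categorised under both DNA repair and target of rapamycin. Its values were 2.45, 1.86 and 2.65 in UV-B libraries, against 5.92, 3.83 and 4.82 in no UV-B libraries, with a log2 fold change of -0.81 ± 0.18 (SE). The no UV-B libraries varied widely, from 3.83 to 5.92, and still lay above the highest UV-B value.

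A further 5 repair members are known only by their category or by a word that does not name a repair function. Cre16.g664350, annotated with MhpC, a hydrolase domain, had the most reads of the class, at values of 73.5, 69.7 and 70.6 in UV-B libraries, against 32.9, 32.3 and 32.6 in no UV-B libraries. Replicates were tight in both groups, and the log2 fold change was 1.10 ± 0.08 (SE). Cre03.g148100 had the largest log2 fold change among the 6 higher genes of the class, 1.18 ± 0.12 (SE), with values of 17.7, 19.5 and 21.9 in UV-B libraries, against 7.57, 7.79 and 8.98 in no UV-B libraries. No protein name accompanies this gene, nor the next 3. Cre13.g586350 averaged 9.29 ± 0.536 in UV-B and 3.96 ± 0.584 in no UV-B (mean ± SD, n = 3 each). Cre17.g713674 averaged 17.7 ± 1.53 in UV-B and 8.30 ± 1.59 in no UV-B (mean ± SD, n = 3 each). Both were higher with UV-B in every library. The fourth, g83, was lower, with 0.471, 0.825 and 0.663 in UV-B libraries, against 2.63, 2.24 and 2.58 in no UV-B libraries. It had few reads, 21 reads over the UV-B libraries and 72 over the no UV-B libraries, and its pooled read ratio was 0.259 (exact 95% interval 0.151 to 0.426), whereas its log2 fold change on log2(value + 1) was only -1.08 ± 0.19 (SE).

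**Figure D2:**
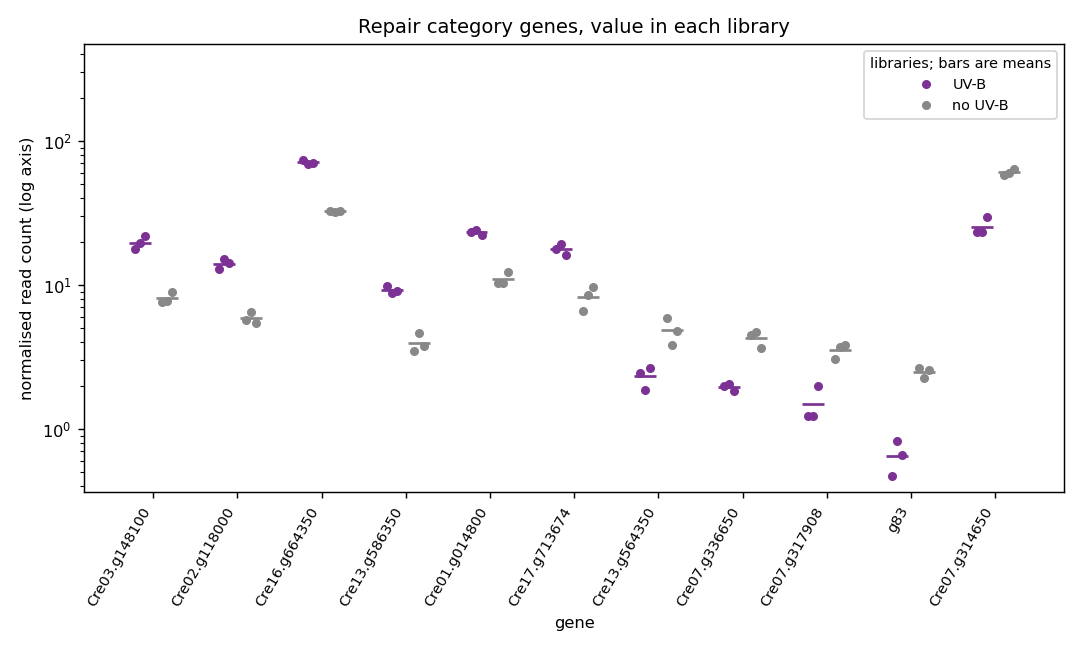
Normalised read count (log axis) of 11 of the 12 repair genes in each of the 3 UV-B and 3 no UV-B libraries, ordered by log2 fold change, with bars at the group means. In the 6 genes on the left every UV-B point lies above every no UV-B point, and in the 5 on the right every UV-B point lies below.

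The genes grouped here as replication machinery were lower in 7 of 7 cases. They comprise an MCM gene, CDC45, the gene of the GINS subunit Psf2, a pair of genes with DNA polymerase words and a pair of type II topoisomerases. Their median log2 fold change was -0.94. The descriptions of the topoisomerases and of g4355, known by polymerase domain words only, name no role in replication. This grouping by annotation was made after the values had been seen. The word list planned for replication covered synthesis and chromatin members only. It also held helicase, a word that this group leaves to another set. Its words do not occur as written in the descriptions of the MCM gene, the Psf2 gene and g4355. CDC45 is categorised under cell division, so the later grouping added these genes. By the planned words the polymerase alpha gene and the topoisomerases were lower, and the helicase genes Cre03.g166650 and Cre07.g349300 were higher. Of the 8 members with helicase or COG1112 words, 6 were higher and 2 lower. Since the rule chose all 7 genes by their difference, the common direction is a description. The summed value of the 7 genes was 20.6 to 26.3 in UV-B libraries and 51.7 to 58.8 in no UV-B libraries.

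The 3 members named for parts of the replicative helicase were each lower. They were listed for their change, and other MCM or GINS genes are not among the members, so the complex as a whole is not described. Cre10.g455850, a minichromosome maintenance (MCM) gene, had 7.73, 7.84 and 8.37 in UV-B libraries, against 16.6, 15.0 and 17.0 in no UV-B libraries. The groups were compact and a factor of 1.80 apart, and the log2 fold change was -0.94 ± 0.12 (SE). Cre06.g270250, the cell division cycle gene CDC45, had 3.02, 1.75 and 2.48 in UV-B libraries, against 4.83, 4.88 and 6.24 in no UV-B libraries. Cre01.g029100, annotated with Psf2, a GINS subunit, had 2.17, 1.34 and 3.56 in UV-B libraries, against 4.61, 5.67 and 5.16 in no UV-B libraries. Their log2 fold changes were -0.90 ± 0.18 and -0.92 ± 0.20 (SE). The UV-B values of the Psf2 gene varied by more than those of the MCM gene, and its highest UV-B value stood a factor of 1.29 under its lowest no UV-B value.

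Polymerase genes were read from few counts. Cre04.g214350, the catalytic subunit of DNA polymerase alpha, had 2.36, 1.13 and 1.24 in UV-B libraries, against 3.84, 3.03 and 3.91 in no UV-B libraries. The first UV-B culture stood above the others, and the log2 fold change was -0.86 ± 0.19 (SE). From 51 reads over the UV-B libraries and 105 over the no UV-B libraries, the pooled read ratio was 0.431 (exact 95% interval 0.302 to 0.608). A further gene with the domain of B-family DNA polymerases, g4355, had 0.942, 0.928 and 0.828 in UV-B libraries, against 3.73, 2.51 and 3.16 in no UV-B libraries. Its pooled read ratio was 0.283 (exact 95% interval 0.179 to 0.433), a difference that the log2 scale with its added 1 gives as -1.11 ± 0.19 (SE).

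Type II topoisomerases cut both strands of DNA and pass another helix through. Cre14.g619800, a type IIB topoisomerase gene, showed the lowest log2 fold change of all members, -1.83 ± 0.17 (SE). Its values were 1.88, 1.75 and 2.57 in UV-B libraries, against 11.1, 8.71 and 9.90 in no UV-B libraries. The means differed 4.78-fold, and the lowest no UV-B value was 3.39 times the highest UV-B value. Cre01.g009250, DNA topoisomerase II, had 4.24, 5.88 and 7.29 in UV-B libraries, against 13.1, 11.9 and 13.5 in no UV-B libraries. Its UV-B replicates ranged widely but stayed below those without UV-B, with a log2 fold change of -1.04 ± 0.15 (SE).

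Genes of histones, histone chaperones and chromosome structure were mixed, 2 higher and 3 lower of 5. The lower genes carry the better-known chromatin names. The gene g1856 has the domain of nucleosome assembly protein (NAP), which escorts histones, and is the member with the most reads. It had 59.0, 53.1 and 58.3 in UV-B libraries, against 149, 151 and 146 in no UV-B libraries. The drop was 2.62-fold in the means with little scatter, and the log2 fold change was -1.38 ± 0.07 (SE). Cre16.g661450, a histone H3 variant gene, had 3.02, 1.75 and 3.56 in UV-B libraries, against 5.92, 5.81 and 7.82 in no UV-B libraries. Its log2 fold change was -1.01 ± 0.18 (SE). Cre02.g086650, a Structural Maintenance of Chromosomes (SMC) gene, whose products form the rings of cohesin and condensin, had 3.39, 3.82 and 3.89 in UV-B libraries, against 6.47, 7.79 and 9.31 in no UV-B libraries. All UV-B values of both genes lay below their no UV-B values.

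The pair of higher genes in this set are in the histone category itself, as is the lower histone H3 variant gene. The lower NAP and SMC genes are not in that category and were grouped here by their descriptions. Cre12.g556400, annotated with HAP5, the name of a histone-fold subunit of a transcription factor in yeast, had 34.9, 27.6 and 34.5 in UV-B libraries, against 12.3, 11.3 and 10.6 in no UV-B libraries. Every UV-B library was at least 2.25 times the highest no UV-B library, and the log2 fold change was 1.42 ± 0.11 (SE). The other, g6281, has no description and is also categorised under zinc finger regulators and ubiquitin ligases. Its values were low, 2.26, 3.09 and 2.82 in UV-B libraries, against 1.10, 1.19 and 0.998 in no UV-B libraries, with a log2 fold change of 0.83 ± 0.19 (SE).

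**Figure D3:**
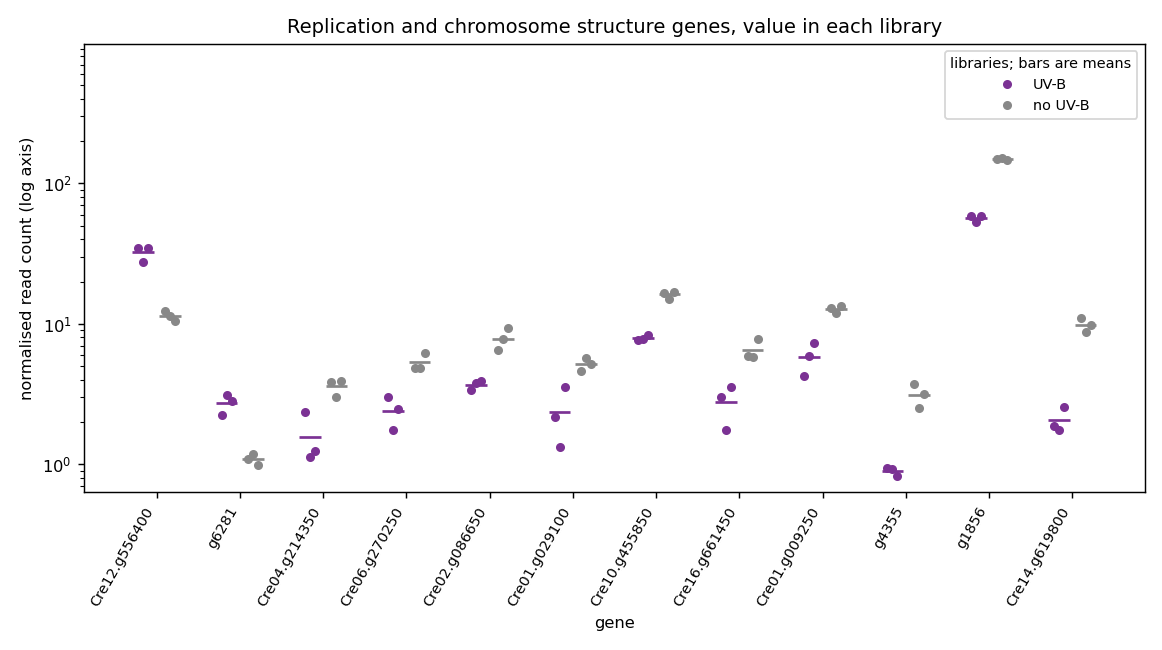
Normalised read count (log axis) of the 12 genes grouped as replication machinery or as histone, chaperone and chromosome structure, in each of the 3 UV-B and 3 no UV-B libraries, with bars at the group means. In Cre12.g556400 and g6281 the UV-B points lie above the no UV-B points, and in the other 10 genes they lie below.

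The rest of the synthesis and chromatin category was mostly higher, and its annotation names helicases and nucleases that need not act on DNA. In all, 9 of the 11 members with a helicase, COG1112 or CCR4 word were higher, with a median log2 fold change of 1.04 over the 11. All 3 CCR4-annotated genes, named for a yeast subunit that shortens the poly(A) tails of mRNA, were higher. Cre12.g504000 had 25.6, 20.9 and 24.3 in UV-B libraries, against 5.05, 7.26 and 6.24 in no UV-B libraries. Its log2 fold change was 1.78 ± 0.13 (SE), or 3.82-fold in the means. Cre12.g500450 had 17.5, 19.8 and 15.5 in UV-B libraries, against 7.57, 4.62 and 5.99 in no UV-B libraries, and its log2 fold change was 1.41 ± 0.14 (SE). The third, g11610, averaged 13.2 ± 0.326 in UV-B and 5.95 ± 0.525 in no UV-B (mean ± SD, n = 3 each). The sources used here do not say how reads shared by related copies were counted, so values within such families are uncertain.

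DEAD-box proteins, most of which unwind RNA, account for 4 of the higher genes. Cre03.g166650, a DEAD/DEAH-box helicase gene, had 7.63, 10.8 and 9.28 in UV-B libraries, against 2.52, 2.11 and 1.83 in no UV-B libraries. Its log2 fold change was 1.69 ± 0.17 (SE). Cre07.g349300, which is also categorised under RNA helicases, had 17.0, 23.9 and 18.4 in UV-B libraries, against 8.77, 7.65 and 7.98 in no UV-B libraries. Its groups lay a factor of 1.93 apart. The remaining pair were g764, with 21.6 ± 0.546 in UV-B and 10.1 ± 1.45 in no UV-B, and Cre07.g319750, with 3.59 ± 0.347 in UV-B and 1.44 ± 0.538 in no UV-B (mean ± SD, n = 3 each). The HrpA-type gene Cre03.g171650, named for a bacterial RNA helicase, averaged 3.03 ± 0.393 in UV-B and 1.19 ± 0.310 in no UV-B (mean ± SD, n = 3 each).

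The pair of genes annotated with COG1112, a family of superfamily I helicases, went in opposite directions. Cre03.g150350 had 12.3, 13.4 and 11.6 in UV-B libraries, against 3.51, 3.83 and 3.24 in no UV-B libraries. The other, g9828, had 3.30, 3.82 and 3.89 in UV-B libraries, against 8.77, 7.65 and 6.49 in no UV-B libraries. Their log2 fold changes were 1.57 ± 0.14 and -0.88 ± 0.16 (SE), and neither overlapped between groups. Cre07.g322300, annotated with the DEAD_2 helicase domain, which occurs in DNA-repair helicases of the XPD family, was the second lower gene, with 0.942, 1.13 and 1.66 in UV-B libraries, against 3.18, 2.38 and 2.74 in no UV-B libraries. It rests on 41 reads over the UV-B libraries and 80 over the no UV-B libraries. The gene g4534, which has the category and no description, averaged 8.56 ± 0.399 in UV-B and 18.5 ± 1.02 in no UV-B (mean ± SD, n = 3 each).

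**Figure D4:**
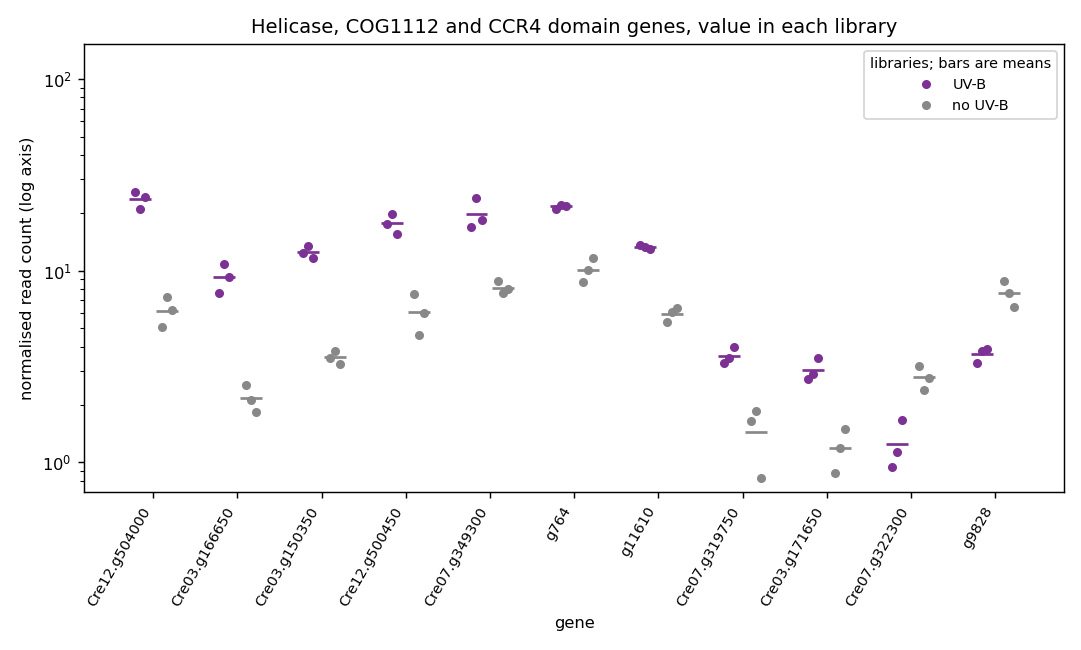
Normalised read count (log axis) of the 11 members annotated with helicase, COG1112 or CCR4 words in each of the 3 UV-B and 3 no UV-B libraries, with bars at the group means. UV-B points lie above no UV-B points in 9 genes and below in g9828 and Cre07.g322300.

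Among the remaining division and cycle genes, a septin gene stood out as higher. Septins are filament-forming GTPases that act in division of yeast and animal cells. Cre12.g556250, the septin-like gene, had 46.2, 49.3 and 48.3 in UV-B libraries, against 7.68, 10.8 and 12.3 in no UV-B libraries. The lowest UV-B value was 3.75 times the highest no UV-B value, and the log2 fold change was 2.14 ± 0.12 (SE). On this scale it was the largest of the 46, but by much less than its SE over Cre10.g445150 (2.13 ± 0.12). By fold of means Cre10.g445150 was ahead, at 4.996 against 4.67. Cre07.g352900, categorised under division and annotated with DENN, a domain of activators of Rab GTPases, had 3.20, 4.13 and 4.31 in UV-B libraries, against 8.88, 8.58 and 9.31 in no UV-B libraries, at a log2 fold change of -1.03 ± 0.15 (SE).

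Many cyclins activate kinases that drive the cell cycle, and 2 of the 3 members with cyclin words were lower. Cre10.g466200, an A/B-type cyclin gene, of the kind that acts in DNA replication and mitosis, had 3.49, 2.48 and 2.48 in UV-B libraries, against 5.37, 5.01 and 7.49 in no UV-B libraries. The D-type cyclin gene g11702, of the kind that acts at the entry into the cycle, had 1.98, 2.78 and 2.40 in UV-B libraries, against 4.72, 4.49 and 4.99 in no UV-B libraries. Log2 fold changes were -0.86 ± 0.18 and -0.76 ± 0.17 (SE). Cre03.g174476, annotated only with the cyclin word CCL1, was higher, with 1.60, 1.65 and 1.90 in UV-B libraries, against 0.987, 0.660 and 0.832 in no UV-B libraries. It had the fewest reads of all members, 56 reads over the UV-B libraries and 24 over the no UV-B libraries, and its pooled read ratio was 2.07 (exact 95% interval 1.26 to 3.49). With DESeq2 on the recovered reads it did not pass the threshold.

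The other cell cycle members do not name cycle functions. Cre06.g292500 and Cre12.g561000 are cyclophilins, proline isomerases that help proteins fold, and their category places them under peptidylprolyl isomerases. Cre06.g292500 averaged 4.31 ± 0.718 in UV-B and 10.2 ± 1.77 in no UV-B, and Cre12.g561000 averaged 7.83 ± 1.54 in UV-B and 16.4 ± 1.09 in no UV-B (mean ± SD, n = 3 each). Both were lower in every UV-B library. The methyltransferase gene g9786, annotated with GidB, a bacterial enzyme that modifies ribosomal RNA, was higher, with 5.56, 7.74 and 8.12 in UV-B libraries, against 1.75, 1.72 and 2.25 in no UV-B libraries. Its log2 fold change was 1.48 ± 0.18 (SE).

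Both members under DNA without further detail were higher. Cre10.g445150, annotated with YbaK, a domain of enzymes that edit mischarged tRNA, had 26.9, 26.8 and 30.1 in UV-B libraries, against 6.14, 5.15 and 5.49 in no UV-B libraries. The 4.996-fold difference of the means was the largest of any member, at a log2 fold change of 2.13 ± 0.12 (SE). Cre11.g480060, annotated with an exonuclease domain, averaged 5.90 ± 0.0720 in UV-B and 2.90 ± 0.113 in no UV-B (mean ± SD, n = 3 each).

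By class, 11 of 22 synthesis and chromatin members were higher and 11 lower (medians 1.17 and -1.01 on the log2 scale), against 6 and 6 in repair. The median over all 22, 0.04, lies between opposite sets: leaving out 1 library at a time gave -0.0076 to 0.13, the lowest without no UV-B replicate 3 and the highest without UV-B replicate 1, and requiring a value of at least 5 gave 1.04. Cell division had 1 higher and 3 lower (median -0.90), and the cell cycle 2 higher and 4 lower (median -0.81). The equal split of repair and of synthesis and chromatin had different make-ups by annotation. Names of repair families occur among both the higher and the lower repair genes. In synthesis and chromatin the genes grouped as replication machinery were all lower. That grouping, made after values were seen, sets apart the genes with helicase words, most of which were higher. Summed over the 12 repair genes, the value was 189.7 to 198.9 in UV-B libraries and 158 to 170.0 in no UV-B libraries. The means of these sums were 194 and 164. Cre16.g664350 alone, whose word MhpC names no repair function, averaged 71.3 in UV-B and 32.6 in no UV-B. Its difference is larger than that of the sums. The lower gene Cre07.g314650 averaged 25.5 in UV-B and 60.8 in no UV-B, which is also a larger difference than that of the sums. The sums thus depend on single genes in both directions and do not describe the class. No test of repair against replication was made, because the members of both were chosen by this comparison.

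Genes of related function outside these categories, found by words in the same table, numbered 20, of which 19 could be tested. Of these 6 were higher and 13 lower with UV-B, and all 19 passed the threshold that 59.0% of all genes tested passed. These genes too were listed for their change. Of 4 genes categorised as chromatin remodelling factors, each with the SNF2-family word HepA, 3 were higher, and the one of them with the most reads, Cre02.g087600, averaged 95.8 ± 7.26 in UV-B and 44.4 ± 2.27 in no UV-B (mean ± SD, n = 3 each). The fourth, g2607, was lower at 2.14 ± 0.206 in UV-B and 5.71 ± 0.794 in no UV-B (mean ± SD, n = 3 each). A histone acetyltransferase-category gene, Cre01.g002250, had 101, 94.0 and 101 in UV-B libraries, against 45.5, 44.7 and 41.3 in no UV-B libraries, and a thymidine kinase gene of nucleotide salvage, Cre03.g192600, had 16.7, 15.4 and 16.9 in UV-B libraries, against 7.68, 7.92 and 7.82 in no UV-B libraries. Both were higher in every UV-B library.

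Lower genes among these included a histone-lysine methyltransferase gene (Cre02.g116850), a spindle pole body gene (Cre09.g404500) and Cre07.g346100, annotated as endonuclease V, an enzyme of damaged-base repair in bacteria. Cre02.g116850 averaged 0.941 ± 0.219 in UV-B and 2.52 ± 0.568 in no UV-B, Cre09.g404500 averaged 3.70 ± 0.430 in UV-B and 8.37 ± 0.599 in no UV-B, and Cre07.g346100 averaged 1.10 ± 0.407 in UV-B and 4.14 ± 0.673 in no UV-B (mean ± SD, n = 3 each). A gene described as a CDT1-like replication initiation factor, the loader of the MCM ring, did not reach the filter on low values and was not tested. This gene, Cre03.g163300, had 0.283, 0.413 and 0.994 in UV-B libraries, against 0.877, 1.98 and 1.66 in no UV-B libraries, and its groups overlapped. Of 9 genes with an Smc word 8 were lower, but the word also marks long coiled-coil proteins. In g11752, the values were 7.73, 5.36 and 6.13 in UV-B libraries, against 12.1, 124.6 and 9.98 in no UV-B libraries, so its no UV-B mean rests on replicate 2.

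By the order of genes in the RefSeq table for assembly Chlamydomonas_reinhardtii_v5.5, which matched 36 of the 46 identifiers, the septin gene Cre12.g556250 and the HAP5 gene Cre12.g556400 were the only matched pair within 10 genes of each other, 3 places apart. Both were higher with UV-B, and the genes between them were not called: the log2 fold change was 0.03 ± 0.17 (SE) in Cre12.g556350, with adjusted p = 0.907 by limma, and -0.10 ± 0.12 in Cre12.g556300, with adjusted p = 0.513. Of 55 measured direct neighbours of members, 35 (63.6%) differed in the same direction as the member. The same held for 54.3% of 7062 adjacent pairs of measured genes and for 59.2% of 2650 neighbours of genes in the authors' table. An opposite pair was Cre17.g713674, the repair-category gene, and its neighbour Cre17.g713700, annotated with the domain word IDO, with a log2 fold change of -3.94 ± 0.12 (SE) and adjusted p = 6.53e-22 by limma.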

How the data were processed

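Library input was 400 ng of RNA in a stranded kit for mRNA, per the labels' protocols. The submitters' processing notes name TopHat2, HTSeq 0.5.3p9 and edgeR 3.4.2, and the sources used here give no genome build, gene models or strand setting. The authors deposited a signal per gene, a normalised read count, meaning reads divided by an effective library size. The authors' deposited table adds log2 fold changes, p-values, descriptions and MapMan categories. All values (100% in each library) were whole multiples of 1 read to within 0.001 reads, so reads could be recovered; in no UV-B replicate 3, where 0 genes have exactly 1 read, the value of 1 read is the common spacing of its values. The least abundant gene has 45 reads over 6 libraries.

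The test was limma 3.58.1 (R 4.3.3) with a mean-variance trend on log2(value + 1), for genes of at least 1 in 3 libraries, adjusted by Benjamini-Hochberg at 0.05. edgeR 4.0.16 and DESeq2 1.42.0 on recovered reads were alternatives. Per-gene read ratios have exact 95% intervals for counting error only. Tables were made in Python 3.11.15 (pandas 2.3.3, SciPy 1.17.1).

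Members and lists were chosen with earlier results of these data known. By rule, 32 members were to be named: all of repair, classes of up to 8 in full, the 4 largest rises and falls of the rest with a mean of at least 10, and those nearest the table's limit. The other 14 are given so that members are accounted for. The values of 1 lower repair member are not reported here, while counts, medians and sums include it. Groupings by annotation words were added after values were seen. In the categories' own name the words synthesis and chromatin apply to every gene, so only descriptions were read for them. No sequences were used.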

Additional observations from a re-analysis of the deposited data

How the results depend on the processing

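All 46 members kept their direction in each of the settings in which they could be fitted, and 45 kept their side of the threshold. Cre03.g174476 was past it in the test reported but not with DESeq2 or at an adjusted p of 0.01, so that 1 cell cycle member, not 2, was raised there. A minimum value of 5 in 3 libraries removes low genes from the fit: lowered members then numbered 14 in all, 2 in repair and 7 in synthesis and chromatin, raised cell cycle members 1 and lowered related genes 5. Under that filter the median log2 fold change was 1.04 in repair, 1.04 in synthesis and chromatin and -0.93 in the cell cycle. With a pseudocount of 0.1 the medians were 0.0276 in repair, -1.01 in the cell cycle, -1.09 in cell division and -1.19 in replication machinery. A pseudocount of 5 gave -0.44 in the cell cycle, -0.52 in cell division and -0.48 in replication machinery, and one of 0.5 gave -0.91 in the cell cycle. On recovered reads edgeR gave 0.0045, -1.03, -1.12 and -1.14 in repair, cell cycle, cell division and replication machinery, and DESeq2 gave 0.0017, -1.03, -1.12 and -1.14. Scaling to an equal total gave 0.20 in repair. Over all genes tested it gave 4538 raised and 3191 lowered, against 3955 and 3965 in the test reported. Leaving out 1 library at a time changed no count of members and left 7242 to 7565 genes called in all and 11 to 13 related genes lowered, and medians ran from 0.10 to 0.13 in repair, -0.0076 to 0.13 in synthesis and chromatin, -0.88 to -0.72 in the cell cycle, -0.98 to -0.79 in cell division and -1.08 to -0.92 in replication machinery. The cause of these shifts was not tested beyond the construction of each setting.

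The labels do not say what a shared replicate number marks. Deviations of same-numbered libraries correlated at 0.045, 0.024 and 0.12 across genes, and those of differently numbered libraries at -0.10 to 0.060. UV-B replicates 1 and 3 correlated best with the no UV-B library of the same number. UV-B replicate 2 correlated best with no UV-B replicate 1 (0.060). With the replicate number as a block 8102 genes were called, against 7920 without it, and the counts of members, 22 raised and 24 lowered, were the same. Members had 80 to 6107 reads over 6 libraries, with a median of 398.5, against 611 over all genes tested.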
